A study of Mus musculus with 14 samples.

Results

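The airways of the mouse lung are lined mainly by club cells, which secrete protective proteins, and by ciliated cells, which move the lining fluid. The lung RNA was examined here for 10 genes that mark these cells, of which Scgb1a1, Scgb3a1, Scgb3a2, Sec14l3, Bpifa1 and Reg3g stand for club and other secretory airway cells and Foxj1, Tekt1, Spag6 and Dnai1 for ciliated cells. Every probe was taken whose symbol in the probe table is that of a listed gene, under its current or an older name. Of the 10 genes, 7 had a probe, with 1 probe each among 19621 probes and 13923 genes, and Dnai1 stands in the table under its older name Dnaic1. No probe carried the symbol Scgb1a1, Sec14l3 or Spag6, so the defining secretoglobin of club cells was not measured here.

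RNA of the right lung was hybridised to single-colour CodeLink arrays, 1 array for each mouse. Wild-type C57/BL6 mice gave 3 arrays as controls, taken without ventilation, and 4 arrays after mechanical ventilation at 10 ml/kg for 8 h. Mice of the jnk1-/- genotype, which lack the stress-activated kinase JNK1 in all cells on the same C57/BL6 background, gave the same numbers, 3 controls and 4 ventilated. The wild-type mice were bought from Jackson Laboratory and the jnk1-/- line was made at Yale University, so genotype and mouse source cannot be told apart. Every mouse was adult and anaesthetised, the ventilated ones also received a muscle relaxant and a tracheostomy, and the sources used here give no exact age. Controls were killed right after anaesthesia. In every comparison called ventilation here, the hours under anaesthesia, the relaxant and the surgery therefore cannot be told apart from ventilation itself. The design compares ventilated with control lungs in each genotype and the genotypes in controls and after ventilation. It also asks whether the ventilation difference was unlike between the genotypes.

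Secretoglobins are small secreted proteins of airway surface fluid, and Scgb3a1 and Scgb3a2 are made by club and related secretory cells. Bpifa1, also called SPLUNC1, is a secreted lipid-binding defence protein of the upper and larger airways, and Reg3g is a secreted C-type lectin that kills Gram-positive bacteria and is induced in airway epithelium by infection. In ciliated cells, Foxj1 is the transcription factor that switches on the programme for motile cilia, Tekt1 is a filament protein of ciliary microtubules, and Dnai1 is an intermediate chain of the outer dynein arm, the motor that bends the cilium.

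Values are log2 intensities after normalization between arrays, and a difference of 1 is a doubling. Normalized array medians lay between 5.76 and 5.84. The probe of the deleted gene, Mapk8, which encodes JNK1, was too dim to check the genotype. Its mean was 3.02 ± 0.31 (SD, n = 3) in wild-type and 1.55 ± 1.70 (n = 3) in jnk1-/- controls, and it lay at the lower limit of the authors' own table on 1 of 3 and on 3 of 3 of these arrays. Among controls, wild-type replicates 2 and 3 differed from each other by an SD of 0.311 over the brighter probes, against 0.507 and 0.597 for the other wild-type pairs, and jnk1-/- replicates 1 and 2 by 0.310, against 0.662 and 0.681, so results are also given with each such pair averaged to 1 array. The jnk1-/- controls stood apart by genes of skeletal muscle and squamous epithelium, on lists chosen with earlier results of these data known. There 13 of 16 measured muscle genes and 12 of 16 squamous genes were called higher than in wild-type controls. Over all 19621 probes, 368 were called higher and 4.05% in either direction. The summed muscle intensity was 13.35 to 13.85 on the log2 scale in jnk1-/- controls against 10.71 to 10.96 in wild-type controls.

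In the mean of both genotypes, 3 of the 4 measured secretory airway genes fell with ventilation. Averaged over both genotypes, Bpifa1 fell 3.93-fold, Reg3g 2.65-fold and Scgb3a1 1.72-fold, whereas Scgb3a2 did not pass the test. Among ciliated cell genes Dnai1 fell 1.50-fold, and Tekt1 and Foxj1 did not pass the test. Thus 4 of the 7 genes were called lower and none higher, where 7.23% of all probes were called lower, 8.67% higher and 15.9% in either direction. The genes were chosen with earlier results of these data known, so this count is a description and no test of enrichment. The median difference of the 7 genes was -0.59 on the log2 scale, against 0.04 over all probes, and 6 of 7 differences were negative. In RNA of bulk lung tissue, fewer airway cells and less RNA per airway cell cannot be told apart. A call here means an adjusted p under 0.05 in limma, with Benjamini-Hochberg adjustment over all 19621 probes. With the closely alike control arrays averaged, Bpifa1 alone was called, at an adjusted p of 0.0175 in limma.

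The stretch of DNA just before the transcription start is shown for these 4 genes, each called lower in the mean of both genotypes, and for Tekt1, which did not pass the test. Each is 250 bases of the RefSeq GRCm38.p6 assembly, printed 5′ to 3′ on the gene's strand and ending at the base before a transcript start listed for the gene. For Scgb3a1, Bpifa1 and Reg3g this is the outer start of the gene, whereas for Dnai1 and Tekt1 it lies 147 and 560 bases inside the gene's outer span, so that these stretches reach into that span or lie within it. The capitals mark matches, on either strand, to short motifs of factors known in airway or stress responses: AP-1 (TGANTCA), NF-kappaB (GGG, any pair of bases, then TTTCC), STAT (TTCNNNGAA), C/EBP (TTGCNNAA), NKX2-1 (CAAGTG), forkhead (TAAACA) and RFX (GTTGCC).
Scgb3a1: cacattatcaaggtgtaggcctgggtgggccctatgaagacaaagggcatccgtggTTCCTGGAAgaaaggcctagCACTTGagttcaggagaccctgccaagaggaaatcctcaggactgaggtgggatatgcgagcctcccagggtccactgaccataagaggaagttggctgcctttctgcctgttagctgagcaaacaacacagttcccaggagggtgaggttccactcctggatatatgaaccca
Bpifa1: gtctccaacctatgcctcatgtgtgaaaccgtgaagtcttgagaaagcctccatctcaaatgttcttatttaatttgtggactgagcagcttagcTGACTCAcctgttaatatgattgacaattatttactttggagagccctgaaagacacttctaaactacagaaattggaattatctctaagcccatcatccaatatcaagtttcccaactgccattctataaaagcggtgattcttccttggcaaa
Reg3g: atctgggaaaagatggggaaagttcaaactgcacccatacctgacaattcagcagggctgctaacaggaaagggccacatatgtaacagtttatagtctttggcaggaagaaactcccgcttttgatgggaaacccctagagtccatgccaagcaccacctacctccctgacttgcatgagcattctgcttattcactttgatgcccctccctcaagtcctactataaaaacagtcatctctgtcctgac
Dnai1: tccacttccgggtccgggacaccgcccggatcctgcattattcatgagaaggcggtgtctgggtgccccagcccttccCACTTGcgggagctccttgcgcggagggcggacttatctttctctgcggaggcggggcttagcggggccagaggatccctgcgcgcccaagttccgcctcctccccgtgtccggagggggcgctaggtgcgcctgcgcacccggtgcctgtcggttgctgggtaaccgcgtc
Tekt1: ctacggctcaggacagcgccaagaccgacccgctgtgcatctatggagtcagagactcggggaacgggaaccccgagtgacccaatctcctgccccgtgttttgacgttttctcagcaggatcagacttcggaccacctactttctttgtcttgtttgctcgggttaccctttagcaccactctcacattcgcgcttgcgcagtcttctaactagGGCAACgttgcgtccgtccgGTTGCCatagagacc
Scgb3a1 (chr11:49663345-49663594, plus strand) held a STAT match, which begins 194 bases before the start, and an NKX2-1 match at 174 bases. Bpifa1 (chr2:154142630-154142879, plus strand) held the AP-1 match TGACTCA at 155 bases, in a motif found in 6.75% of 32851 promoter stretches of this length. Dnai1 (chr4:41569544-41569793, plus strand) held an NKX2-1 match at 172 bases before the inner start. In Tekt1 (chr11:72361883-72362132, minus strand) the RFX letters occurred on opposite strands, at 35 and at 15 bases before the inner start, and a further Tekt1 start listed in the same table held no match. Reg3g (chr6:78468875-78469124, minus strand) held none of the 7 motifs. Among all stretches, STAT letters stood in 7.02%, NKX2-1 in 11.6%, RFX in 10.4%, forkhead in 12%, C/EBP in 9.56% and NF-kappaB in 1.41%, and no matches shown here overlap. These are matches of letters, no binding was measured, and the 4 genes share no single motif of the 7. The promoter table used here had no entry for Scgb3a2 or Foxj1.

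Bpifa1, on chromosome 2 (154142880 to 154149217 in GRCm38.p6), had the largest fall of the 7 genes in the mean of both genotypes and in jnk1-/- lungs, while in wild-type lungs the difference of Reg3g was larger. Wild-type controls read 12.59, 12.50 and 13.05, and ventilated wild-type lungs read 10.90, 11.09, 10.91 and 12.57. The jnk1-/- controls read 11.96, 11.33 and 11.77, and ventilated jnk1-/- lungs read 8.06, 9.76, 9.69 and 8.81. Every ventilated jnk1-/- array lay below every other array of the series, and the jnk1-/- groups were apart in this direction for 11.2% of all probes. Of the ventilated wild-type arrays, 3 of 4 lay below all controls of both genotypes while the other stayed within the wild-type control range. The fall in jnk1-/- lungs was called: Bpifa1 fell by 2.61 (SE 0.47), or 6.09-fold, at an adjusted p of 0.00560 in limma. It was 1 of 7 genes called there, where 5.01% of all probes were called lower, 6.73% higher and 11.7% in either direction. In wild-type lungs the difference was -1.35 (SE 0.47) with a 95% interval of -2.38 to -0.31 and an adjusted p of 0.137 in limma.

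After ventilation Bpifa1 was 4.87-fold lower in jnk1-/- than in wild-type lungs (log2 difference -2.29, SE 0.44, adjusted p = 0.0436 in limma), the single one of the 7 genes called in that comparison, where 0.285% of all probes were called lower and 0.525% in either direction. The arrays of the genotypes did not overlap for Bpifa1, as in this direction for 3.25% of all probes. This call is near the threshold and was lost under 16 of 20 other settings, with adjusted p-values up to 0.433, although the difference stayed between -2.51 and -1.88. In controls the jnk1-/- arrays also lay below the wild-type arrays without overlap, by 1.03, and this difference was not called (adjusted p = 0.276 in limma). The difference of the ventilation effect between genotypes was -1.26 (95% interval -2.72 to 0.20, adjusted p = 0.454 in limma), so a larger fall in jnk1-/- lungs was not shown. These comparisons share arrays. On ventilated arrays the summed muscle intensity overlapped between genotypes, at 9.91 to 10.34 in wild-type and 9.77 to 10.47 in jnk1-/- lungs, and so did the squamous sum, at 10.47 to 11.06 and 10.28 to 10.86.

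**Figure D1:**
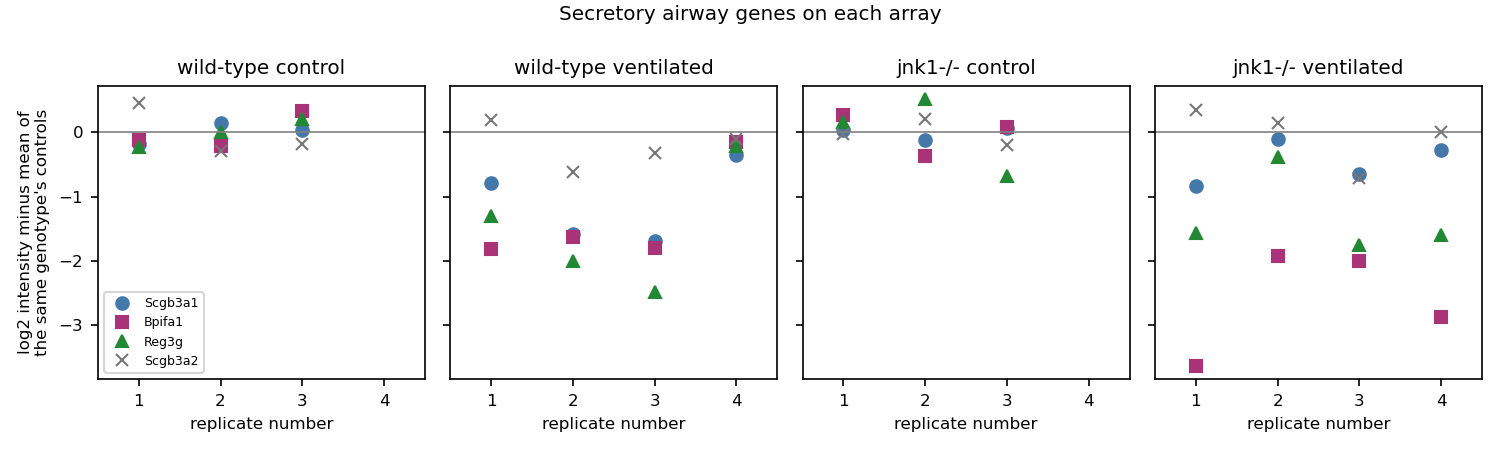
Log2 intensity of 4 secretory airway genes on each array minus the mean of the controls of the same genotype, by replicate number in each group, with the line at the control mean. Ventilated arrays lie below the line for Scgb3a1, Bpifa1 and Reg3g, close to it on wild-type replicate 4, and Scgb3a2 lies on both sides of it.

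Reg3g (chromosome 6, 78466269 to 78468874) read 11.33, 11.57 and 11.77 in wild-type controls and 10.26, 9.56, 9.07 and 11.34 after ventilation. Controls of the jnk1-/- genotype read 11.13, 11.48 and 10.29 and the ventilated jnk1-/- arrays 9.40, 10.59, 9.22 and 9.38. In each genotype 1 ventilated array reached the control range, so the groups overlapped. The difference was -1.50 (SE 0.51, adjusted p = 0.125 in limma) in wild-type and -1.32 (SE 0.51, adjusted p = 0.117) in jnk1-/- lungs, neither called alone. In the mean of both effects, Reg3g fell by 1.41 (SE 0.36, adjusted p = 0.0207 in limma). The genotypes differed by -0.59 in controls and by -0.41 after ventilation, neither of them called, with 95% intervals of -1.77 to 0.60 and -1.44 to 0.62.

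Scgb3a1 (chromosome 11, 49663595 to 49665118) read 12.13, 12.46 and 12.35 in wild-type controls and 11.53, 10.74, 10.62 and 11.96 in ventilated wild-type lungs. The jnk1-/- values were 11.64, 11.48 and 11.67 in controls and 10.77, 11.49, 10.96 and 11.33 after ventilation. All ventilated wild-type arrays lay below all wild-type controls, as 10.5% of all probes did, and the jnk1-/- groups overlapped narrowly. The wild-type controls were thus the highest group, and the means of the other groups lay between 11.14 and 11.60. Ventilation changed Scgb3a1 by -1.10 (SE 0.31, adjusted p = 0.0693 in limma) in wild-type and by -0.46 (SE 0.31, adjusted p = 0.384) in jnk1-/- lungs, neither called. In the mean of both effects Scgb3a1 fell by 0.78 (SE 0.22, adjusted p = 0.0305 in limma), a call that was lost under 9 of 24 other settings. In controls the jnk1-/- arrays lay 0.72 below wild-type without overlap, at an adjusted p of 0.242 in limma.

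Scgb3a2, on chromosome 18, was not called in any comparison. It read 14.22, 13.48 and 13.58 in wild-type controls, 13.96, 13.15, 13.44 and 13.66 after ventilation, 13.99, 14.23 and 13.82 in jnk1-/- controls and 14.36, 14.16, 13.31 and 14.03 after ventilation. The 4 groups overlapped. The mean ventilation difference was -0.13 with a 95% interval of -0.57 to 0.31 (adjusted p = 0.719 in limma), an interval that leaves out a fall as large as that of Bpifa1, Reg3g or Scgb3a1 at their point estimates. Its level lies near the top of the scale, where the highest deposited value of an array was between 14.21 and 14.82, and the files hold no flag for saturated spots.

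The ventilated wild-type replicate 4 was the highest of its group for Scgb3a1, Bpifa1 and Reg3g, none of which was called in wild-type lungs in the main setting. With it kept, Scgb3a1 was called with median centring, without dim probes or with array weights (adjusted p = 0.0308, 0.0199 and 0.0435 in limma). Reg3g was called without dim probes (adjusted p = 0.0428). Without replicate 4, ventilation in wild-type lungs called Scgb3a1 (-1.35, adjusted p = 0.0291 in limma), Bpifa1 (-1.75, adjusted p = 0.0481) and Reg3g (-1.92, adjusted p = 0.0438). Dnai1 was then no longer called, as on leaving out any other ventilated wild-type array. No call of Scgb3a1, Bpifa1 or Reg3g was gained on leaving out another ventilated wild-type array. Replicate 4 was the highest of its group for these genes, so leaving it out lowers their ventilated mean by construction. Averaged effects of both genotypes without this array called the same 4 genes as with it. In Scgb3a2 and Dnai1 this array lay among the others of its group, and in Tekt1 it was the lowest.

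**Figure D2:**
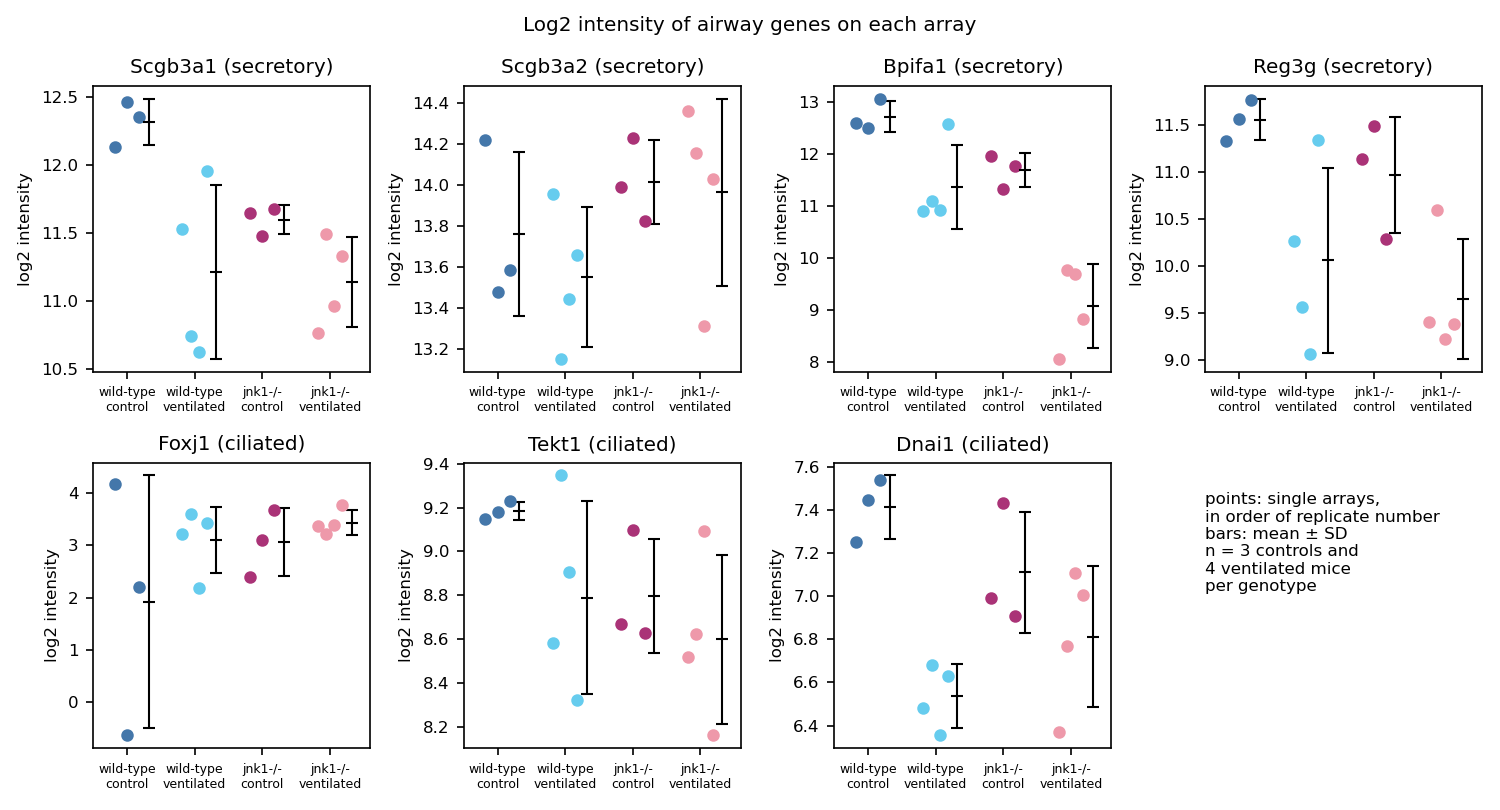
Log2 intensity of the 7 measured airway genes on each of 14 arrays (points), by group, with the group mean and SD beside them; each panel has its own vertical axis, which does not start at 0. Bpifa1 is lowest on the 4 ventilated jnk1-/- arrays, Dnai1 is lower on all ventilated than on all control wild-type arrays, and the Foxj1 values are near the lower limit of measurement.

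Dnai1 (chromosome 4, 41569647 to 41638158) was the ciliated cell gene with a called change. Wild-type controls read 7.25, 7.44 and 7.54 and ventilated wild-type lungs 6.48, 6.68, 6.36 and 6.63, with no overlap. The jnk1-/- controls read 6.99, 7.43 and 6.91 and ventilated arrays 6.37, 6.77, 7.11 and 7.004, and the groups overlapped. Dnai1 fell by 0.88 in wild-type lungs (SE 0.21, adjusted p = 0.0395 in limma), the only 1 of 7 genes called there, where 1.49% of all probes were called lower, 2.19% higher and 3.68% in either direction. That call was lost under 10 of 19 other settings, with adjusted p-values up to 0.150, and on leaving out any ventilated wild-type array. The difference in jnk1-/- lungs was -0.30 (SE 0.21, adjusted p = 0.406 in limma), and the effects of the genotypes differed by 0.58 (95% interval -0.06 to 1.21, adjusted p = 0.429), which was not called. In the mean of both effects Dnai1 fell by 0.59 (SE 0.15, adjusted p = 0.0184 in limma).

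Tekt1 (chromosome 11, 72344717 to 72362442) read 9.15, 9.18 and 9.23 in wild-type controls, with an SD of 0.04, and 8.59, 9.35, 8.91 and 8.32 after ventilation. In jnk1-/- mice the controls read 8.67, 9.10 and 8.63, and the ventilated jnk1-/- lungs 8.52, 8.62, 9.09 and 8.16. Ventilated arrays lay on both sides of the wild-type control range. The mean ventilation difference of Tekt1 was -0.30 with a 95% interval of -0.71 to 0.11 (adjusted p = 0.324 in limma), and the interval includes the fall measured for Dnai1. All jnk1-/- controls lay below all wild-type controls for Tekt1, by 0.39, which was not called (adjusted p = 0.475 in limma).

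Foxj1 (chromosome 11, 116330704 to 116335499) was too dim for a statement on ventilation or genotype. It read 4.18, -0.63 and 2.21 in wild-type controls and 3.22, 3.60, 2.19 and 3.44 after ventilation. The jnk1-/- controls read 2.40, 3.11 and 3.68 and the ventilated jnk1-/- lungs 3.37, 3.22, 3.39 and 3.77. On 10 of 14 arrays its value stood at the lower limit of the authors' table, and the wild-type control SD was 2.42. The mean ventilation difference was 0.78 with a 95% interval of -0.50 to 2.07, the only positive mean ventilation difference among the 7 genes.

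**Figure D3:**
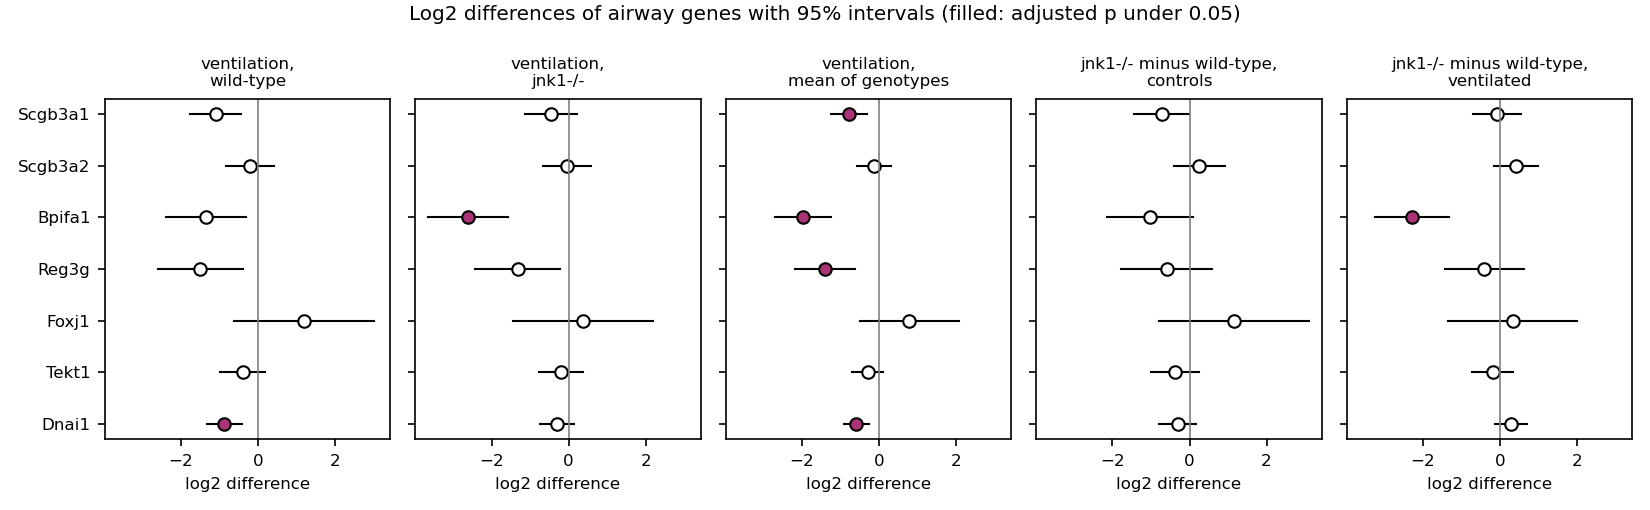
Log2 differences of the 7 airway genes (points) with 95% intervals from limma for ventilation in each genotype, the mean of both, and jnk1-/- minus wild-type in controls and after ventilation; filled points passed an adjusted p of 0.05. Ventilation differences lie below 0 for every gene but Foxj1, and 4 of 7 are filled in the mean of both genotypes.

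Between genotypes in controls, none of the 7 genes was called in limma, where 4.05% of all probes were called and 2.18% called lower, and 1 of them, Scgb3a1, had an unadjusted p under 0.05. Scgb3a1, Bpifa1 and Tekt1 were lower in jnk1-/- controls without overlap, as 13% of all probes were. Muscle and squamous genes were higher in the jnk1-/- controls, and their part in these differences was not tested. The difference of the ventilation effect was called for none of the 7 genes, against 0.398% of all probes in either direction and 0.194% lower, and none had an unadjusted p under 0.05.

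Other genes of club cells, from a list of 22 genes of which 18 were measured, were mostly not called. In the mean of both genotypes 4 of 18 were called lower and 1 higher, beside 7.23% and 8.67% of all probes, with a median difference of -0.33 against 0.04 over all probes. Lypd2, a Ly6-family protein, fell by 1.35, Retnla, a resistin-like protein also made by macrophages, fell by 1.12, and Gabrp, a GABA receptor subunit, fell by 0.82 (adjusted p = 0.000705, 0.0211 and 0.00143 in limma). Lypd2 and Gabrp were called lower in each genotype alone, with differences of -1.41 and -0.96 in wild-type and of -1.30 and -0.69 in jnk1-/- lungs. Nupr1, a stress-induced nuclear protein that many cells make, rose by 2.26 (adjusted p = 0.000755 in limma). The fourth gene called lower was the cytochrome P450 Cyp2a5 (-1.75), named after its value was seen, and close relatives may share its probe signal. The other 13 measured club cell genes were not called in that mean. The summed intensity of the 18 genes was 16.38 to 16.46 in wild-type controls and 16.20 to 16.42 after ventilation, and in jnk1-/- lungs 16.11 to 16.33 and 15.99 to 16.23, so that both pairs of ranges overlapped.

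Among other genes of motile cilia, 34 of 51 were measured, and 6 were called lower and 2 higher in the mean of both genotypes, beside the same 7.23% and 8.67% of all probes, with a median difference of -0.35. Dynlrb2, a dynein light chain, was the most clearly changed, with group means of 10.96 in wild-type controls, 9.95 after ventilation, 10.51 in jnk1-/- controls and 9.28 after ventilation. Dynlrb2 fell by 1.01 in wild-type (adjusted p = 0.0123 in limma) and fell by 1.23 in jnk1-/- lungs (adjusted p = 0.00199). Ropn1l, a radial spoke protein, had differences of -1.21 and -1.45 (adjusted p = 0.0259 and 0.00482 in limma). Sntn, a protein of the ciliary tip, fell by 1.89 in jnk1-/- lungs, Spa17 fell by 1.23 there, and in the mean of both genotypes Tppp3, a tubulin-binding protein, fell by 0.73 while Cfap69 rose by 0.51. Nme5 (-0.52) and Cdhr4 (0.68) made up the 6 and the 2 called in that mean and are named after their values were seen. The counts were 2 of 34 lower in wild-type lungs, where 1.49% of all probes were, and 5 lower and 1 higher in jnk1-/- lungs, where 5.01% and 6.73% were, with medians of -0.04 and -0.56. None of the 34 was called for the difference of effect between genotypes. Their summed intensity was 13.82 to 13.88 in wild-type controls and 13.30 to 13.61 after ventilation. In jnk1-/- lungs it was 13.75 to 13.93 and 12.96 to 13.62, so neither pair of ranges overlapped. Such a sum is led by its brightest genes. The median in wild-type lungs turned to 0.02 with the pairwise curves applied in sequence, and the 2 calls higher in the mean of both genotypes were absent when arrays were only centred on their medians.

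Of 10 measured regulators of cilium formation, 2 were called lower in the mean of both genotypes, where 7.23% of all probes were, and none higher. These were the centrins Cetn4, which fell by 1.15 (adjusted p = 0.00255 in limma), and Cetn2, which fell by 1.03 (adjusted p = 0.00520). Both build centrioles and basal bodies, and Cetn2 does so in dividing cells too. Neither was called in wild-type lungs alone, where 0 of 10 were called, against 2 lower in the authors' normalized values. The summed intensity of the 10 genes was 9.75 to 9.98 in wild-type controls and 9.51 to 9.59 after ventilation. In jnk1-/- lungs it was 9.71 to 10.17 and 9.33 to 9.67, again without overlap.

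**Figure D4:**
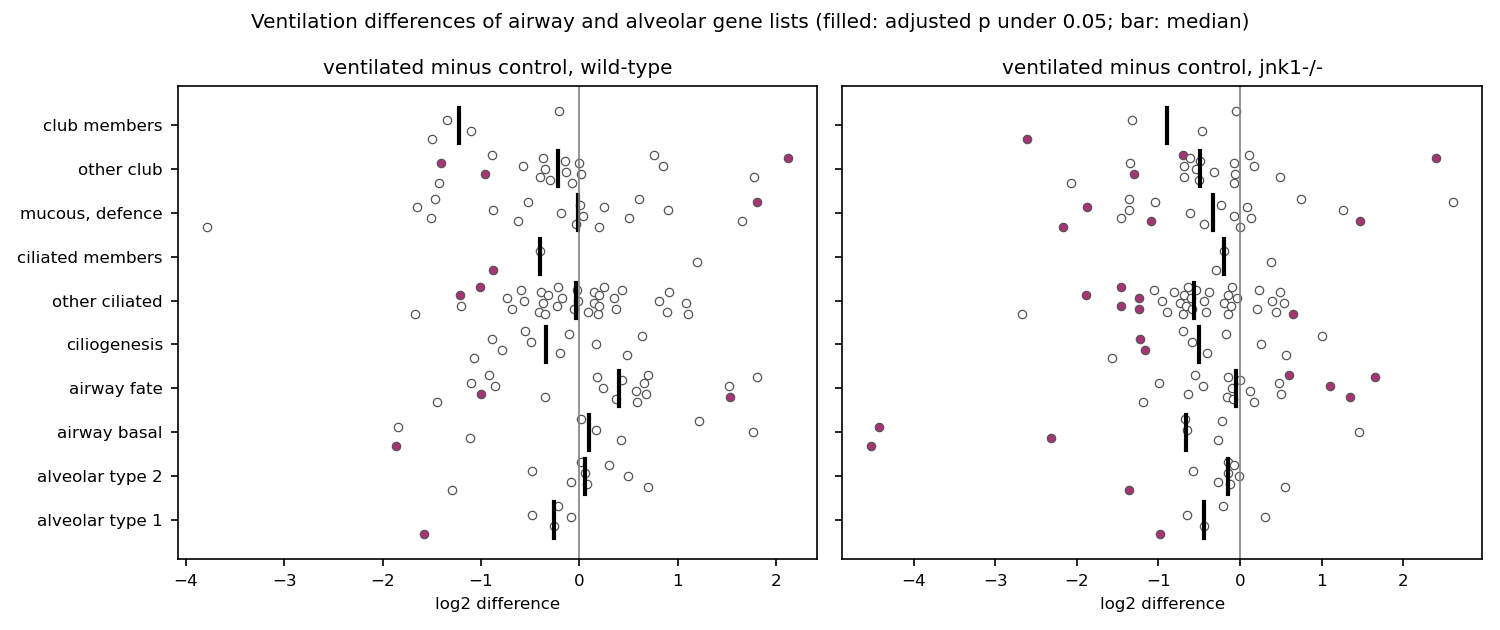
Log2 difference of ventilated minus control lungs for each measured gene of the airway and alveolar lists (points), in wild-type (left) and jnk1-/- lungs (right), with the median of each list as a bar; filled points passed an adjusted p of 0.05 in limma. The medians of the 4 club members are -1.23 and -0.89, further from 0 than those of the other lists shown. Some lists not shown had larger medians: neutrophil genes 3.34 and 2.52, and in jnk1-/- lungs muscle genes -3.82 and squamous genes -3.10.

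Of the mucous and airway defence genes, 18 of 24 were measured, with 1 higher and 1 lower in the mean of both genotypes, no larger a share than the 8.67% and 7.23% of all probes. Tff2, a trefoil peptide secreted with mucus, fell by 1.69 (adjusted p = 0.00595 in limma), and its relative Tff1 rose by 0.76 (adjusted p = 0.0318). The secreted protease inhibitor Slpi fell by 1.09 in jnk1-/- lungs and Ltf, which encodes lactoferrin, fell by 2.16, and neither was called in wild-type lungs. For Slpi the effect itself differed between genotypes by -1.69 (adjusted p = 0.0251 in limma), with group means of 9.99 in wild-type controls, 10.60 after ventilation, 11.67 in jnk1-/- controls and 10.58 after ventilation. The jnk1-/- controls, where Slpi was high, are those with high squamous and muscle genes, and the part of these tissues was not tested.

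Markers of other cells moved with ventilation beside the airway genes. Of 13 measured neutrophil genes, 7 were called higher in wild-type and 7 in jnk1-/- lungs, where 2.19% and 6.73% of all probes were. The summed neutrophil intensity was 11.11 to 12.20 in wild-type controls and 14.21 to 14.95 after ventilation. It was 10.39 to 10.97 in jnk1-/- controls and 13.56 to 14.92 after ventilation. Their part in the fall of airway genes was not tested. Alveolar type 2 genes gave summed ranges of 14.91 to 15.15 and 14.94 to 15.23 in control and ventilated wild-type lungs and of 15.07 to 15.48 and 15.05 to 15.44 in jnk1-/- lungs, so that the groups overlapped. The sum of 5 alveolar type 1 genes was 13.16 to 13.21 in wild-type controls and 12.71 to 13.00 after ventilation, without overlap, and 13.26 to 13.71 and 12.98 to 13.56 in jnk1-/- lungs, with overlap. Their median difference in the mean of both genotypes was -0.43, so lower values were not limited to airway genes. Of the 16 muscle genes 15, and of the 16 squamous genes 12, were called lower with ventilation in jnk1-/- lungs, against 0 and 1 in wild-type lungs. Over all probes, 5.01% were called lower in jnk1-/- and 1.49% in wild-type lungs. Among airway basal cell genes, 3 of 8, namely Krt5, Krt14 and Dapl1, were called lower in jnk1-/- lungs, with differences of -4.52, -4.43 and -2.31. Squamous epithelium makes Krt5 and Krt14 as well, and after ventilation these stood at the authors' lower limit on 2 of 4 and 4 of 4 jnk1-/- arrays. Dapl1 alone was called in wild-type lungs, where it fell by 1.87 (adjusted p = 0.0201 in limma). Cartilage genes gave no call in wild-type and 1 higher in jnk1-/- lungs, and so did genes of airway or salivary glands, which include Bpifa2, a relative of Bpifa1 that rose by 0.68 in jnk1-/- lungs.

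The genes whose values most resembled the mean centred profile of the 4 secretory genes over the 14 arrays, out of 8361 brighter probes with 1 symbol, were Reg3a (Pearson r 0.947), Crym (0.930), Tff2 (0.929), Accs (0.925) and Ces1f (0.919). Reg3a is a lectin of the same family as Reg3g, and near-identical family members may share probe signal. The mean ventilation differences of these 5 genes were -1.03, -1.20, -1.69, -0.39 and -1.58. Of the 4 secretory genes, Scgb3a1, Bpifa1 and Reg3g followed their mean profile (r 0.908, 0.902 and 0.959), and Scgb3a2 did not (r 0.078). Each gene is itself part of the profile it was set against, and the genes that vary most weigh most in it. These r values therefore do not test whether the genes move together. The profile of the 3 ciliated genes mostly followed the dim and most variable probe, Foxj1 (r 0.835). Tekt1 (r 0.165) and Dnai1 (r 0.173) hardly followed it, so it does not describe the 3 genes as a set. Rpgr (r 0.875), Naxd (0.816), Tmed3 (0.805), Gps1 (0.786) and Vamp8 (0.781) were nearest to that profile, and none of them was called for ventilation. All 14 arrays and their groups enter these correlations, which are a description.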

How the data were processed

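Lung RNA of 14 mice was measured on 14 CodeLink UniSet I 20K arrays. For each array the authors deposited log2 intensities that were not yet normalized against the other arrays and reach down to -6.86. A second deposited table holds log2 values after the authors' cyclic loess, and 24.5% of these stand at a lower limit of 3.12. The files carry no quality flags. Precision is limited by how many arrays there are and, for Foxj1, by its dim signal. Labels do not say whether arrays share litters or days, so p-values measure the spread between these mice.

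Cyclic loess was run on the unnormalized table over every pair of arrays (span 0.667, 3 passes) in R 4.3.3. Curves were drawn without values at the deposited minimum, and afterwards all values below percentile 1 were raised to it (-0.63). Corrections of a pass were summed before use. This form was preferred to corrections applied in sequence after both had been computed, since it was nearer to the authors' values (lowest correlation 0.9897 above their limit). Group means were fitted with lmFit and eBayes in limma 3.58.1 for 6 contrasts over all 14 arrays, and p-values were adjusted by Benjamini-Hochberg over all probes, with calls under 0.05. Normalization and fit were tested on simulated arrays with known changes.

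Members and lists were chosen with earlier results of these data known, and the promoter motifs after these values were seen. All member probes are described. Of each other list, up to 4 called genes per comparison are named by adjusted p, each by its brightest probe. The lists hold 228 further genes, of which 182 were measured. Some genes on the neutrophil, muscle and squamous lists were among those the study chose on these arrays, such as Mmp8, Clec4d, Mylpf, Tnni2, Atp2a1, Casq1 and Calm4. The functional groups the study reported from these arrays also name Mmp9, S100a8, Acta1, Tnnc2, Actn3, Tgm3 and Smpx. Counts on these lists are therefore not independent of that choice. Symbols come from the platform's probe table, and positions and promoters from RefSeq GRCm38.p6, for 5 of the 7 measured genes. Alternatives were other normalizations (quantile, fast cyclic loess, median centring, the authors' values), no floor, dim probes left out, only the groups compared, the methods' t-test (Welch), array weights, a replicate block, mean of all probes, closely alike controls averaged and each replicate left out. Figures used matplotlib 3.10.9 with Python 3.11.15.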

Additional observations from a re-analysis of the deposited data

Results flagged for a closer look

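In ventilated wild-type lungs, Bpifa1 read 12.57 on replicate 4 and 10.90 to 11.09 on the other 3 arrays, and the gap from replicate 4 to its nearest neighbour was 0.886 of the whole range of the group. In ventilated jnk1-/- lungs, Reg3g read 10.59 on replicate 2 and 9.22 to 9.40 on the other 3, with a gap of 0.866 of the range. Both gaps exceed Dixon's critical value (95% level) for 4 arrays. This test was run on 14 gene and group combinations of 4 arrays, and chance alone passes about 1 in 20 such groups. Groups of 3 were not tested.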

How the results depend on the processing

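The number of arrays, 3 or 4 a group, and dimness for Foxj1, limit these results. No called difference of the 7 genes turned its sign under any alternative run. Over the alternatives, 792 member differences kept direction and side of the threshold, 41 called ones lost the call, 8 gained one, and 21 that were not called changed sign. Bpifa1 kept its call in the mean of the ventilation effects under all 24 alternatives (-2.18 to -1.81) and in jnk1-/- lungs under 18 of 19, the exception being the methods' t-test (adjusted p = 0.113). After ventilation between genotypes, 1 gene called became 0 with quantile normalization, fast cyclic loess, median centring, sequential cyclic loess (added after seeing the data), no floor, only the groups compared, alike controls averaged, the replicate block or the methods' t-test, and leaving out a replicate gave 0 to 1, with 1 only without jnk1-/- ventilated replicate 3. For the mean of both effects, 4 became 1 with alike controls averaged, and leaving out a replicate gave 1 (without wild-type control 3, Bpifa1), 2 (without jnk1-/- control 2, Bpifa1 and Dnai1) or 3 to 4 genes. In jnk1-/- lungs 1 became 2 without dim probes and 0 by the methods' t-test. In wild-type lungs 1 became 2 with array weights or median centring, 3 without dim probes, 0 with alike controls averaged, the replicate block, sequential cyclic loess or the methods' t-test, and 0 to 3 on leaving out a replicate. Both other comparisons gave 0 throughout. The cause was not tested.

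The labels number replicates in every group, but same-numbered arrays hardly deviated together (correlations between -0.046 and 0.077). No pairing by number was therefore assumed, and these values cannot show whether such arrays share a litter or day. The replicate block gave 0 genes in wild-type lungs and 0 after ventilation between genotypes, and changed no other count of the 7 genes. Over all probes, calls moved by more than 1.5 times: in wild-type lungs from 723 to between 10 (methods' t-test) and 2231 (array weights), in jnk1-/- lungs from 2303 to between 59 and 3771 by the same alternatives, in the mean from 3120 to between 1675 (alike controls averaged) and 5100 (array weights), between controls from 795 to between 2 and 2155, after ventilation from 103 to between 17 and 226, and for the difference from 78 to between 19 and 344. Higher calls were 59.5% in wild-type lungs against 43.7% with median centring and 48.7% in the authors' values, and 46.3% between controls against 30.3% with median centring.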

Other observations

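Of 18 measured regulators of airway cell fate, 4 were called higher and 1 lower in the mean of both ventilation effects, beside 8.67% and 7.23% of all probes. Cebpd, a C/EBP factor of the acute phase response, rose by 1.59, Klf5, a Krüppel-like factor, by 0.89, Elf3, an epithelial ETS factor, by 0.79 and Notch2, a receptor that guides secretory cell fate, by 0.52 (adjusted p = 0.000386, 0.0182, 0.0188 and 0.0146 in limma). The 1 called lower was Elf5 (-1.02), an ETS factor of epithelium named after its value was seen. Gata6, a factor of lung epithelial development, fell by 1.004 in wild-type lungs and was 1.11 higher in jnk1-/- than in wild-type lungs after ventilation (adjusted p = 0.0322 and 0.0403 in limma).

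Among alveolar cells, 2 of 5 measured type 1 genes were called lower in the mean of both effects (7.23% of all probes were), Akap5 (-1.28) and Clic5, a chloride channel protein (-0.46). Of 9 type 2 genes, the collectin Sftpd rose by 0.62 and Muc1, a membrane mucin, fell by 0.37. Sftpb, a surfactant protein that club cells make too, was 1.78 higher in jnk1-/- than in wild-type controls and fell by 1.36 with ventilation in jnk1-/- lungs (adjusted p = 0.0120 and 0.0137 in limma). Pigr, the receptor that carries antibodies across epithelium, was 1.72 higher in jnk1-/- controls and rose by 1.80 in wild-type lungs (adjusted p = 0.0328 and 0.0210 in limma), with 1 of 3 wild-type controls at the lower limit of the authors' table.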
